A study of Mus musculus with 6 samples.

Results

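The genes described here write, copy and erase methylation of cytosine in DNA. They are the DNA methyltransferase genes Dnmt1, Dnmt3a and Dnmt3b, Uhrf1, the dioxygenase genes Tet1, Tet2 and Tet3, and the isocitrate dehydrogenase genes Idh1 and Idh2. The genes were chosen by name, and every probe set whose platform symbol was one of these 9 genes was used. This gave 9 of 18193 measured genes, with 23 of 45037 probe sets that were not array controls. Probe sets annotated to several genes contained 0 that listed a member.

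RNA came from MLL-AF9 LGMP, sorted leukaemic progenitors of mouse bone marrow, with 3 arrays per genotype and 1 value per probe set and array. LGMP were lineage-negative and Sca1-negative cells positive for cKit, YFP, CD34 and FcgRII/III. The WT group (n = 3) had the genotype MLL-AF9 EF1αwt/wt ROSAwt/CreERT2. The N1-IC group (n = 3) carried EF1αwt/lsl-N1-IC, an inducible Notch1 intracellular domain at the EF1α locus, beside the same MLL-AF9 and ROSAwt/CreERT2. Leukaemic cells of both groups thus carried CreERT2, a Cre recombinase that tamoxifen activates, and all recipients received tamoxifen. The leukaemic cells were cKit-positive cells infected with MLL-AF9, a fusion oncogene of acute myeloid leukaemia, on a construct with the YFP marker. Irradiated wild-type recipients, which keep their own non-haematopoietic cells, were 12 weeks old and got 50000 of these cells with 250000 wild-type support cells. Tamoxifen (0.2 mg per g) was given in 2 injections from 4 weeks after transplantation, and cells were taken 6 days after the last one. The WT samples are labelled male and the N1-IC samples female, so genotype and sex cannot be told apart in any comparison. The labels do not say whether a sample was 1 mouse or a pool, and the p-values rest on a spread among these arrays that may be technical.

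In mammals DNMT1, brought to newly replicated DNA by UHRF1, copies the methylation pattern to the daughter strand, and DNMT3A and DNMT3B set new marks. TET enzymes oxidise the methylated base, the first step of its removal, and use iron and 2-oxoglutarate to do so. IDH1 in the cytosol and IDH2 in mitochondria make 2-oxoglutarate from isocitrate and yield NADPH. DNMT3A, TET2, IDH1 and IDH2 are recurrently mutated in human acute myeloid leukaemia, where the mutant dehydrogenases make 2-hydroxyglutarate, an inhibitor of the TET enzymes. DNMT3A and TET2 restrain self-renewal of blood stem cells in mice.

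The sequence before 1 listed transcription start is shown for each of 4 of these genes, since the study induced Notch, whose nuclear complex binds DNA through RBPJ. RefSeq starts on GRCm38.p6 were found for all 9 genes, at 15 positions. The RBPJ core searched was TGGGAA and the E2F letters, bound by the factors that time DNA replication genes, were TTTCCCGC, TTTCGCGC, TTTGCCGC or TTTGGCGC, all on either strand. The 2 motifs do not overlap in the sequences shown. The 250 bases upstream are given 5′ to 3′, with a match in capitals, at the start with the most CpG pairs where a gene had several. Dnmt1 and Uhrf1 form the maintenance pair, Tet1 is the TET gene with the widest spread over arrays and Idh2 the member with the smallest p.
Dnmt1, chr9:20952624-20952873, strand -: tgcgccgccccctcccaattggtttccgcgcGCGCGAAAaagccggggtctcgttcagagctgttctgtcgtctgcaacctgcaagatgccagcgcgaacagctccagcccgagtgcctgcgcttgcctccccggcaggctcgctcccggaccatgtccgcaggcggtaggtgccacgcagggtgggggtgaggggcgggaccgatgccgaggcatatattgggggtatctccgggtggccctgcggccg
Uhrf1, chr17:56304063-56304312, strand +: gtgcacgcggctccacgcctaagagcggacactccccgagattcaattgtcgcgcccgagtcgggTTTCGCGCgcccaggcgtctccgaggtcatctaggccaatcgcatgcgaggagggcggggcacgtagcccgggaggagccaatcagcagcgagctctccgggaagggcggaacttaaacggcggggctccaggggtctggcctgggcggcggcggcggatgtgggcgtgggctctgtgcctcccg
Tet1, chr10:62887325-62887574, strand -: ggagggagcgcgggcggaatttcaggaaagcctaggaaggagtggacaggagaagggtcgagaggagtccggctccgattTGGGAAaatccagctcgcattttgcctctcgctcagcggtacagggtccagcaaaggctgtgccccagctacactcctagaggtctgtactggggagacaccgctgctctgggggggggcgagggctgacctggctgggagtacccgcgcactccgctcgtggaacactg
Idh2, chr7:80115351-80115600, strand -: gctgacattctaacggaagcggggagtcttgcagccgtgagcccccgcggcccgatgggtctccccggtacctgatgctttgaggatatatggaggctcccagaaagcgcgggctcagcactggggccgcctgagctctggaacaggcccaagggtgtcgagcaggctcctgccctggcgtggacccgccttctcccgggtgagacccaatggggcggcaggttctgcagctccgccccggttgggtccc
The Dnmt1 window held GCGCGAAA, the reverse complement of TTTCGCGC, and the Uhrf1 window held TTTCGCGC itself. These were the 2 of 15 member starts with E2F letters, which occur in 1.86% of all 32851 windows in the table. Each of these letter sets contains CpG, and most member windows held more CpG than the median window. The share over all windows is thus not a like background. Some Dnmt3a windows overlap, so the 15 are not independent. The RBPJ core occurred at 4 of 15 member starts, in Tet1, Tet3, 1 start of Dnmt1 and 1 start of Dnmt3a, and in 21.6% of all windows. Neither set of letters occurred in the Idh2 window. CpG pairs, the substrate of these enzymes, numbered 26 for Dnmt1, 30 for Uhrf1, 15 for Tet1 and 17 for Idh2 in the windows shown. Those of Dnmt1 and Uhrf1 lie downstream of the other listed starts of these genes. Transcripts from those starts run through these windows, as exon or intron. Their CpG pairs and E2F letters are thus not those of untranscribed upstream sequence alone. The windows at those other starts held 7 and 2 CpG pairs for Dnmt1 and 10 for Uhrf1, with no E2F letters. Over the 15 starts the CpG pairs ran from 2 to 51, the latter at Tet2, against a median of 6 over all windows. Of the 15 starts 14 lay above that median. The methylation of these windows was not measured here.

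Some arrays stand apart in genes other than the members, and whether this bears on the member values was not tested. The array of WT replicate 2 is labelled male and had Xist at 10.70 log2 units, against 5.42 and 5.64 on the other WT arrays and 12.73 to 12.82 in N1-IC. Its Y-linked genes Eif2s3y, Uty and Kdm5d were lower than on the other WT arrays but far above N1-IC. Mean levels of 13 of 15 listed erythroid and megakaryocyte markers were 8.58 on this array and 6.02 to 6.58 on the other 5. Mean levels of 11 of 12 late granulocyte markers were 7.59 for WT replicate 1 and 9.94 to 10.54 on the other 5 arrays. The gate genes measured were Kit, at 10.23 to 10.76, Cd34, at 10.05 to 11.69, Fcgr3 and Fcgr2b, and Ly6a, which encodes Sca1, was not analysed here. Mpo, a defining gene of granulocyte-monocyte progenitors, lay at 13.80 to 14.11 on every array.

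All 9 genes were measured well above the middle of the arrays, and none passed the limma test between genotypes. Of the 23 probe sets 0 passed a Benjamini-Hochberg adjusted p under 0.05, where 0.00888% of all probe sets passed (4 of 45037, all lower in N1-IC). The member with the smallest p was Idh2, and its p was the single one of the 23 under 0.05 before adjustment (0 higher and 1 lower in N1-IC), a threshold met by 7.7% of all probe sets, 3.57% higher and 4.13% lower. Means were higher in N1-IC for 12 probe sets and lower for 11, against 22729 higher and 22308 lower over all probe sets. The median log2 fold change was 0.029 over the members and 0.0025 over all probe sets. The 3 N1-IC arrays lay outside the WT range for 1 of the 23 (4.35%), an Idh1 probe set that was higher, against 14.4% of all probe sets, 7.4% higher and 7.02% lower. A p above the threshold does not show equal expression, so each difference is given with its 95% interval from the same fit. That interval lay within 1 log2 unit of 0 for 22 of the 23 probe sets and within 0.5 for 12. Since sorted cells were measured in bulk, fewer cells of a type and less RNA per cell cannot be told apart.

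**Figure D1:**
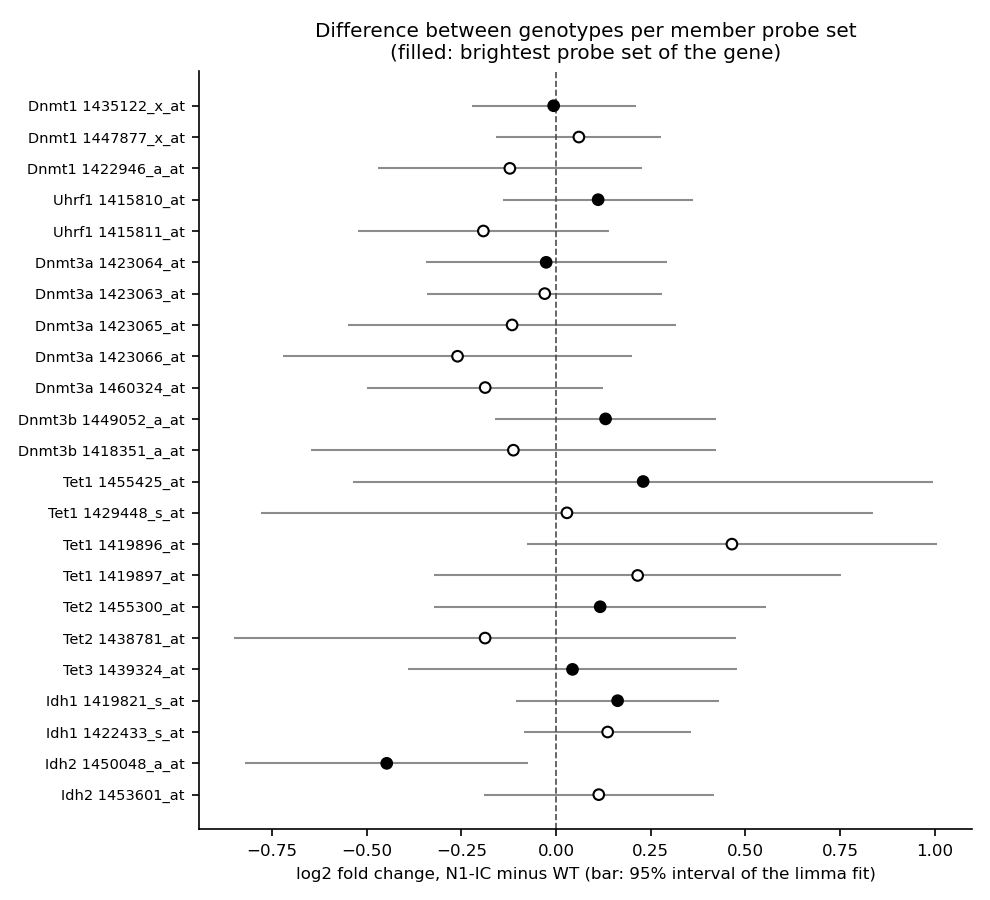
Log2 fold changes of N1-IC over WT for the 23 member probe sets, with 95% intervals of the limma fit, 3 arrays per group. All intervals cross 0 except that of Idh2 1450048_a_at, whose adjusted p is 0.639, and the widest interval is that of Tet1 1429448_s_at. Filled points mark the brightest probe set of each gene.

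Values below are log2 intensities, in the order of replicates 1, 2 and 3, and a difference is N1-IC minus WT. A probe set is a group of short oligonucleotides for 1 transcript region, and since probe sets bind with unequal strength, levels are compared only within a probe set. By the platform's naming, _a_at sets match transcripts of 1 gene, while _s_at and _x_at sets may also bind transcripts of similar sequence.

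Dnmt1, the maintenance methyltransferase gene, had little spread over the 6 arrays by its 2 _x_at probe sets and more by 1422946_a_at. Its brightest probe set, 1435122_x_at, read 13.40, 13.52 and 13.40 in WT and 13.44, 13.46 and 13.41 in N1-IC. The difference was -0.0063 ± 0.089 (standard error, n = 3 per group), with an interval from -0.22 to 0.21, which is 0.857-fold to 1.16-fold (limma adjusted p = 0.987). The whole range over 6 arrays was 0.123 log2 units, wider than that of only 2.3% of probe sets at or above the median level. The second probe set, 1447877_x_at, read 12.51, 12.65 and 12.62 in WT and 12.69, 12.62 and 12.65 in N1-IC, with overlapping groups. By 1422946_a_at it read 10.93, 11.33 and 10.88 in WT and 10.89, 10.91 and 10.97 in N1-IC, a difference of -0.12 ± 0.14. Its range of 0.455 was wider than that of 34.9% of the same probe sets. Only WT replicate 2 departed there, the difference was 0.022 without it, and it was the highest Dnmt1 array by 1435122_x_at and 1422946_a_at. DNA replication genes, of which 23 of 24 listed were measured, also had their highest mean on that array, 10.96 against 10.68 to 10.88 on the others. Whether the erythroid markers or the replication genes of this array play a part in its Dnmt1 value was not tested.

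Uhrf1, whose product recognises hemimethylated DNA and recruits DNMT1, gave a like picture. By 1415810_at it read 12.73, 12.90 and 13.00 in WT and 12.99, 12.98 and 12.99 in N1-IC. The N1-IC arrays fell together within an SD of 0.0109, inside the WT range. The difference was 0.11 ± 0.10, with an interval from -0.14 to 0.36 (limma adjusted p = 0.759). The other probe set, 1415811_at, read 9.33, 9.63 and 9.24 in WT and 9.34, 9.11 and 9.18 in N1-IC, a difference of -0.19 ± 0.14 in the other direction. WT replicate 2 was again the highest array by this probe set.

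Dnmt3a, the main de novo methyltransferase gene of blood stem and progenitor cells, had 5 probe sets, and all 5 had a lower mean in N1-IC with overlapping groups. The brightest, 1423064_at, read 12.55, 12.59 and 12.36 in WT and 12.46, 12.30 and 12.66 in N1-IC. Its difference was -0.026 ± 0.13, with an interval from -0.34 to 0.29 (limma adjusted p = 0.959). Of the other 4, 1423066_at had the largest difference, -0.26 ± 0.19, with 9.13, 8.93 and 8.65 in WT and 8.58, 8.41 and 8.95 in N1-IC. The shared sign does not count as 5 observations, since all 5 are annotated to the same sequence record and measure the same arrays. N1-IC replicate 2 was the lowest array by all 5 probe sets, on average 0.28 log2 units below the mean of the 6 arrays. N1-IC replicate 3 lay above that mean by 4 of the 5, so the N1-IC arrays differed more from each other than the group means did.

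Dnmt3b, the second de novo enzyme gene, had 2 probe sets of opposite sign. By 1449052_a_at it read 9.23, 9.38 and 9.38 in WT and 9.60, 9.28 and 9.50 in N1-IC, a difference of 0.13 ± 0.12 with an interval from -0.16 to 0.42 (limma adjusted p = 0.757). By 1418351_a_at it read 6.22, 6.90 and 6.13 in WT and 6.45, 6.25 and 6.21 in N1-IC, a difference of -0.11 ± 0.22. The second value turned to 0.13 without WT replicate 2, the array that stood above the rest.

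**Figure D2:**
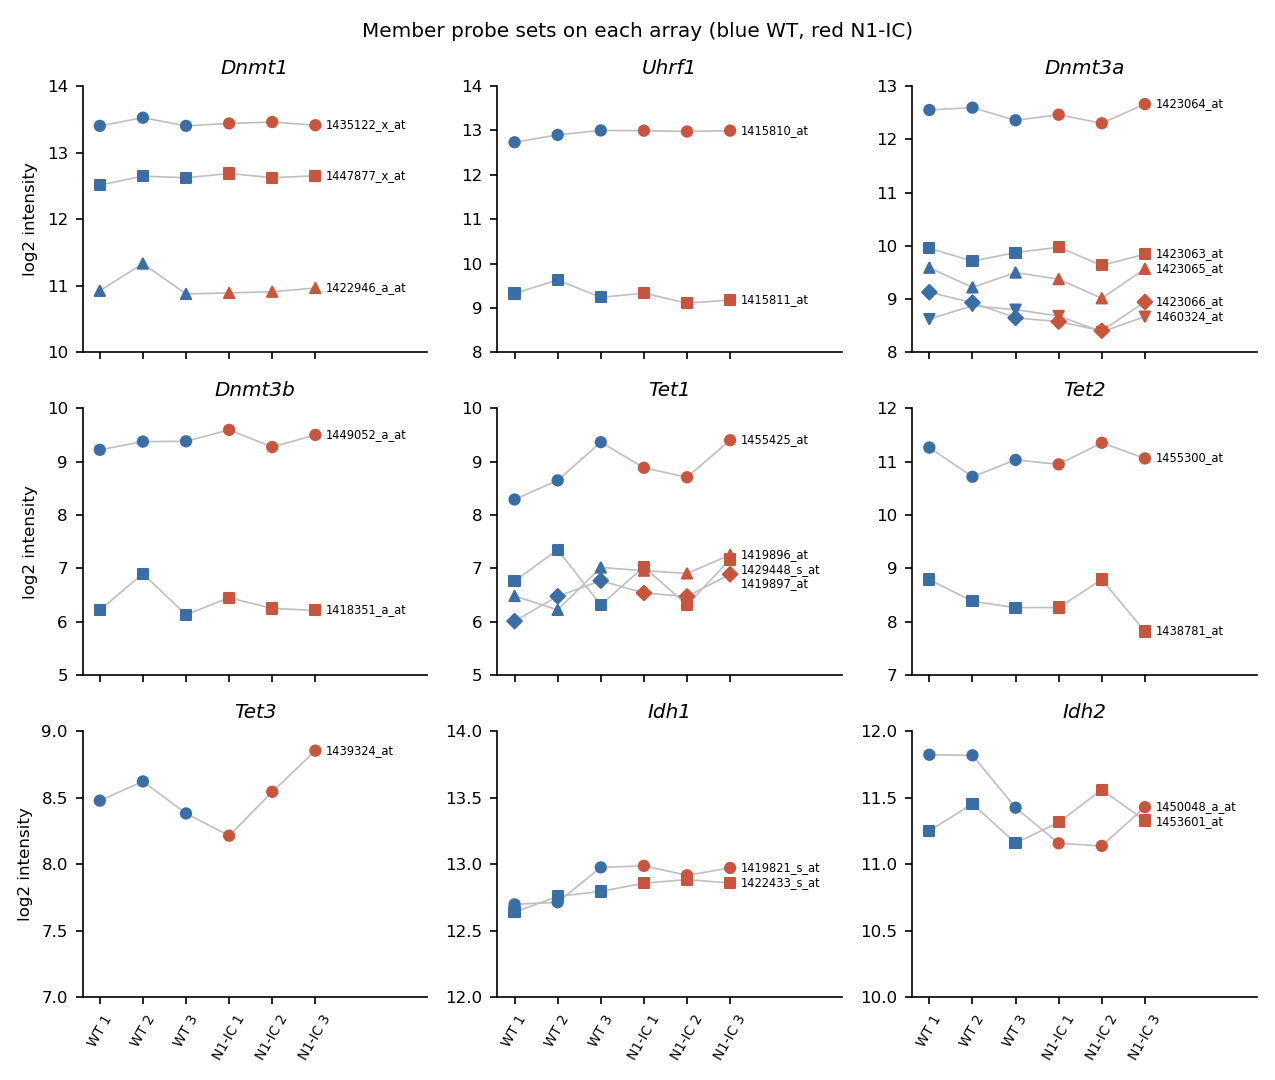
Log2 intensity of each of the 23 member probe sets on each of the 6 arrays, 1 panel per gene with its own axis, WT in blue and N1-IC in red. Lines join the values of 1 probe set and mark no order. The 2 groups overlap for every probe set except Idh1 1422433_s_at, where WT ends at 12.80 and N1-IC begins at 12.86.

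By its brightest probe set, 1455425_at, Tet1 varied most of the 9 genes, with more spread within the groups than between their means. It read 8.29, 8.65 and 9.37 in WT and 8.89, 8.71 and 9.40 in N1-IC. Replicate 3 was the highest array of each group, and the range of 1.11 log2 units exceeded that of 81.5% of probe sets at or above the median level. The difference was 0.23 ± 0.31, with an interval from -0.54 to 1.00, whose upper end is 1.99-fold (limma adjusted p = 0.836). It was -0.0089 without WT replicate 1 and 0.53 without WT replicate 3. The other 3 probe sets had means from 6.42 to 7.04, closer to the array medians of 5.63 to 5.67. Of these 1419896_at had the largest difference of all member probe sets, 0.46 ± 0.22, with 6.48, 6.22 and 7.02 in WT and 6.96, 6.91 and 7.25 in N1-IC (limma adjusted p = 0.645). WT replicate 3 lay within the N1-IC values, so the groups overlapped, and the difference was 0.69 without that array. By 1419897_at the difference was 0.22 ± 0.22. By 1429448_s_at it was 0.029 ± 0.33, with 6.76, 7.35 and 6.31 in WT and 7.03, 6.31 and 7.17 in N1-IC, and WT replicate 3 was low there while it was high by the other 3 probe sets.

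Tet2, a tumour suppressor gene of myeloid cells, had probe sets that differed in the sign of the group difference. By 1455300_at it read 11.27, 10.72 and 11.04 in WT and 10.95, 11.36 and 11.06 in N1-IC, a difference of 0.12 ± 0.18 with an interval from -0.32 to 0.55 (limma adjusted p = 0.855). By 1438781_at it read 8.79, 8.38 and 8.26 in WT and 8.27, 8.79 and 7.82 in N1-IC, a difference of -0.19 ± 0.27. WT replicate 1 and N1-IC replicate 2 were the highest arrays by each probe set, while the lowest was WT replicate 2 by 1455300_at and N1-IC replicate 3 by 1438781_at. Averaged over probe sets these 2 arrays lay 0.30 and 0.35 log2 units above the mean of the 6 arrays for Tet2, and 0.37 and 0.16 below it for Tet1.

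Tet3, also a dioxygenase gene, had 1 probe set, 1439324_at. It read 8.48, 8.62 and 8.38 in WT and 8.21, 8.54 and 8.85 in N1-IC, so the N1-IC arrays held both the lowest and the highest value. The difference was 0.043 ± 0.18, with an interval from -0.39 to 0.48 (limma adjusted p = 0.95).

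**Figure D3:**
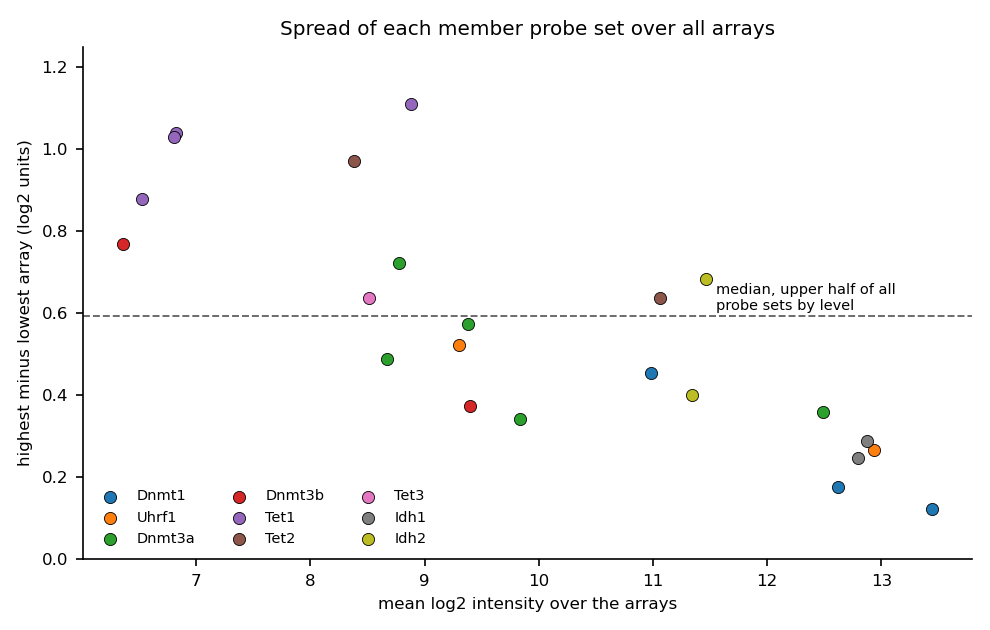
Range over the 6 arrays (highest minus lowest, log2 units) against the mean log2 intensity of each of the 23 member probe sets, coloured by gene, with the median range of probe sets at or above the median level (0.593) as a dashed line. Dnmt1, Uhrf1 and Idh1 have bright probe sets with ranges from 0.123 to 0.289, and the 4 Tet1 probe sets range from 0.88 to 1.11.

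The width of each interval is computed from the spread within the groups, as the fit estimates it, and so follows that spread by construction. Of the 23 probe sets 13 had a range under 0.593, the median of the 22519 probe sets at or above the median level. The brightest probe sets of Dnmt1, Uhrf1, Idh1, Dnmt3a and Dnmt3b had ranges of 0.123, 0.267, 0.289, 0.36 and 0.374. Those of Tet2, Tet3, Idh2 and Tet1 had 0.638, 0.638, 0.684 and 1.11. The range also holds the difference between groups, so it need not rank as the interval does. Idh2 had a wider range than Tet2 but a narrower interval, 0.747 against 0.876 log2 units. Dnmt3b likewise had a wider range than Dnmt3a but a narrower interval, 0.582 against 0.636. Among these brightest probe sets the interval was narrowest for Dnmt1, at 0.433 log2 units from end to end, and widest for Tet1, at 1.53.

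Idh1, the cytosolic dehydrogenase gene, had a higher mean in N1-IC by both probe sets, without passing. By 1422433_s_at it read 12.64, 12.76 and 12.80 in WT and 12.86, 12.88 and 12.86 in N1-IC, the single member probe set whose groups did not overlap. The difference was 0.14 ± 0.091, or 1.10-fold, with an interval from -0.084 to 0.36 (limma adjusted p = 0.699). By the brighter 1419821_s_at it read 12.70, 12.71 and 12.98 in WT and 12.99, 12.92 and 12.97 in N1-IC, a difference of 0.16 ± 0.11 (limma adjusted p = 0.703). WT replicate 3 lay among the N1-IC arrays there. WT replicate 1 was the lowest array by both, and late granulocyte markers were lowest on it too. Their part in the Idh1 values was not tested, and without this array the differences were 0.090 and 0.11.

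Idh2, the mitochondrial dehydrogenase gene, had the largest difference among the brightest probe sets of the 9 genes, and one of opposite sign by its other probe set. By 1450048_a_at it read 11.82, 11.82 and 11.42 in WT and 11.16, 11.14 and 11.43 in N1-IC. WT replicates 1 and 2 lay above every N1-IC array, while WT replicate 3 lay within the N1-IC values, so the groups overlapped. The difference was -0.45 ± 0.15 (0.734-fold), with an interval from -0.82 to -0.074, an unadjusted p of 0.0261 and a limma adjusted p of 0.639. It ranged from -0.58 without WT replicate 3 to -0.38 without WT replicate 1, and it was -0.18 against WT replicate 3 alone. By 1453601_at it read 11.25, 11.45 and 11.16 in WT and 11.31, 11.56 and 11.33 in N1-IC, a difference of 0.11 ± 0.13 (limma adjusted p = 0.794). The probe sets are annotated to different sequence records, and which transcripts each binds was not analysed here.

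**Figure D4:**
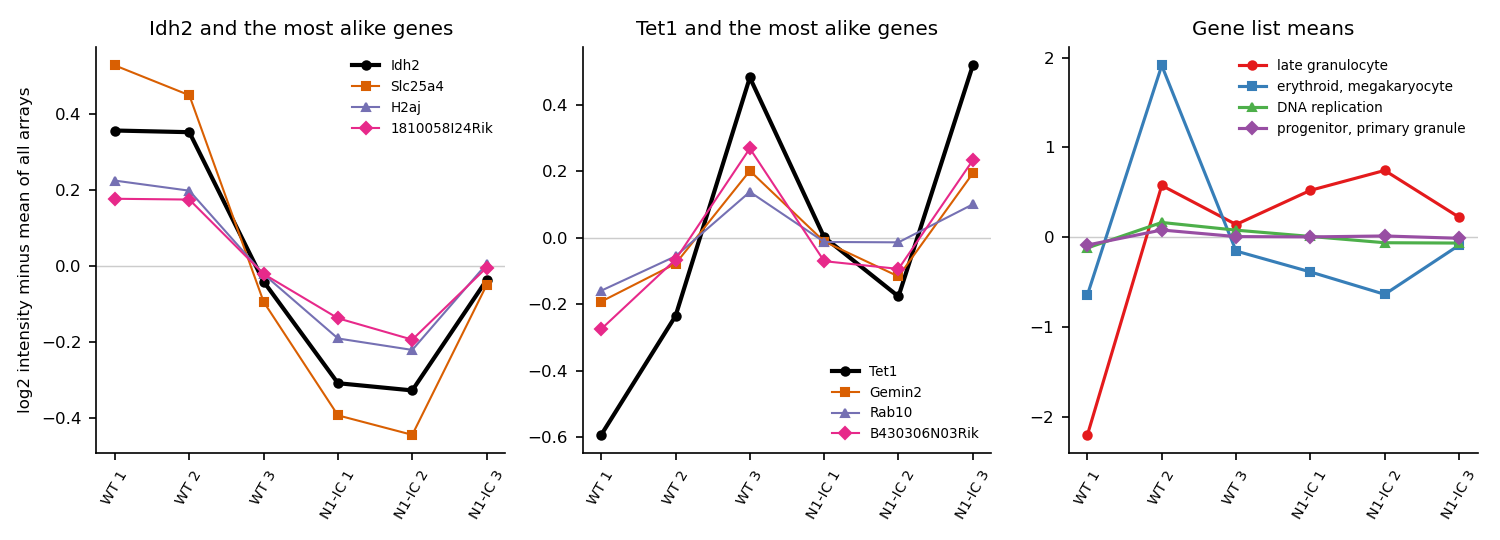
Log2 intensity minus the mean of the 6 arrays for Idh2 and Tet1 with their 3 most alike genes (left and middle), and for the means of 4 gene lists (right). Idh2 and its alike genes are high in WT replicates 1 and 2 and low in N1-IC replicates 1 and 2, late granulocyte markers dip in WT replicate 1, and erythroid markers peak in WT replicate 2.

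The genes whose pattern over the 6 arrays was most like that of Idh2 were Slc25a4, which encodes the mitochondrial ADP/ATP carrier, H2aj, a histone H2A gene, and 1810058I24Rik. Their Pearson correlations with Idh2 were 0.997, 0.996 and 0.994 over 6 arrays, the highest of 9096 genes at or above the median gene level. Slc25a4 read 11.84, 11.76 and 11.22 in WT and 10.92, 10.87 and 11.26 in N1-IC, the same order of high and low arrays as Idh2. For Tet1 they were Gemin2, of the SMN complex that assembles splicing particles, Rab10, a small GTPase gene of vesicle transport, and B430306N03Rik, at 0.985, 0.98 and 0.979. Over so many genes high values arise among 6 arrays in any case, and these correlations carry no test.

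Late granulocyte markers had a higher mean in N1-IC for 11 of 11 measured genes, but for 7 of 11 without WT replicate 1. Of the 11 markers 1, Mmp9, had groups that did not overlap (9.09%, against 14.8% of all genes). The summed intensity of the 11 lay between 8118 and 64232 units on WT arrays and between 52275 and 70625 on N1-IC arrays, with 0 genes at 0. For the erythroid and megakaryocyte markers it lay between 4609 and 23593 on WT arrays and between 4346 and 7483 on N1-IC arrays. Means of these markers were higher in N1-IC for 4 and lower for 9, or higher for 7 and lower for 6 without WT replicate 2. For the monocyte and macrophage markers, 7 of 9 measured, the sums overlapped, at 4350 to 6462 on WT arrays and 4111 to 5553 on N1-IC arrays. Their mean log2 levels did not overlap, at 7.50 to 7.86 and 7.95 to 8.05. Means of these markers were higher in N1-IC for 5 and lower for 2. The faint Mrc1, C1qb and C1qa were higher by 1.36, 0.74 and 0.45, and the brighter Ccr2 and Cx3cr1 by 0.71 and 0.21. Adgre1 and Cd68, also brighter, had differences of -0.57 and -0.46. Cd34, one of the gate genes, was lower on every N1-IC array, with 11.69, 11.52 and 11.33 in WT and 11.04, 10.05 and 11.28 in N1-IC. Of 9 listed T lineage markers 7 were measured, without Lck and Tcf7. These 7 stayed low, with sums of 213 to 363 on WT arrays and 223 to 270 on N1-IC arrays. The part of any of these cells in the Idh2, Tet1 or Dnmt1 values was not tested. Without WT replicate 1 the difference was -0.38 for Idh2 1450048_a_at, -0.0089 for Tet1 1455425_at and -0.027 for Dnmt1 1435122_x_at. Without WT replicate 2 these were -0.38, 0.17 and 0.035.

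None of the other genes of the pathway passed either. By the brightest probe set of each gene 0 of 97 genes on 8 lists passed in limma (smallest adjusted p = 0.618), where 0.0055% of all 18193 genes passed. That share is 1 gene, the Y-linked Eif2s3y, lower in the N1-IC samples, which are labelled female. An unadjusted p under 0.05 was reached by 6 of the 97, against 7.98% of all genes, and groups did not overlap for 12 (12.4%), against 14.8% of all genes. Means were higher in N1-IC for 37 of the 97 and lower for 60, against 9567 higher and 8626 lower over all genes. The median log2 fold change was -0.052 against 0.012 over all genes. For the 97 the counts of higher and lower means were 36 and 61 without WT replicate 1, and 42 and 55 without WT replicate 2. None of the values named in the next paragraphs passed.

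Cofactors of methylation (13 of 13 measured) had 5 higher and 8 lower means and a median of -0.085. Trdmt1, a relative of the DNA methyltransferases that methylates transfer RNA, had 0.55 ± 0.26, and Trim28, the corepressor that protects imprints, -0.21 ± 0.11. Zfp57, its zinc finger partner, had 0.25 ± 0.15 at a level below the array median. Readers of methylated CpG (8 of 10 measured, 5 higher and 3 lower, median 0.015, or 7 higher and 1 lower without WT replicate 1) included Zbtb33, which encodes Kaiso, at 0.31 ± 0.12 with every N1-IC array above WT by its brightest probe set. Its other probe set had 0.061. Mbd3, of the NuRD complex, had -0.27 ± 0.15 and Mbd4, a glycosylase gene, 0.26 ± 0.21, with another of its 3 probe sets at -0.19.

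Base excision genes, which replace oxidised methylcytosine with cytosine, had 3 higher and 10 lower means of 13 measured, with a median of -0.052. Xrcc1, the repair scaffold, had -0.44 ± 0.18 and the glycosylase gene Neil3 -0.32 ± 0.13, both lower on every N1-IC array by the brightest probe set. The other probe set of Neil3 gave 1.07, so its probe sets disagreed. Gadd45a, a stress gene linked to demethylation, had -0.31 ± 0.22. Listed partners of TET enzymes (9 of 9 measured, 5 higher and 4 lower, median 0.0034, or -0.058 without WT replicate 1) were led by Zscan10, Cxxc4 and Prdm14, all below the array medians on all 6 arrays.

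Genes of the methyl donor cycle (11 of 14 measured) had 7 higher and 4 lower means and a median of 0.11, or 5 higher, 6 lower and a median of -0.019 without WT replicate 1. Mtrr, which reactivates methionine synthase, had 0.41 ± 0.15 with every N1-IC array above WT, and Mtr, methionine synthase itself, had 0.28 ± 0.16 with -0.001 by its other probe set. Mthfd2, of mitochondrial folate metabolism, had -0.27 ± 0.17. Genes that supply or use 2-oxoglutarate beside Idh1 and Idh2 (11 of 13 measured) had 3 higher and 8 lower means, a median of -0.10 and no separated group. Among them Ogdh, of the 2-oxoglutarate dehydrogenase, had -0.24 ± 0.15, the aconitase gene Aco1 0.17 ± 0.11 and the transaminase gene Got1 -0.12 ± 0.092.

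Enzymes that clear the TET inhibitors succinate, fumarate and 2-hydroxyglutarate, or make succinate, (9 of 10 measured) had 2 higher and 7 lower means and a median of -0.056. Sdha, the catalytic subunit of succinate dehydrogenase, had -0.13 ± 0.088 and was lower on every N1-IC array by its brightest probe set, and its other 3 probe sets had the same sign. Sdhb had -0.19 ± 0.17 and the fumarase gene Fh1 -0.086 ± 0.094. DNA replication genes had 7 higher and 16 lower means and a median of -0.10, or -0.012 without WT replicate 2. Orc1, of the origin recognition complex, had -0.67 ± 0.24, Chaf1b, a histone chaperone gene of replication, -0.36 ± 0.17 and Gins2, of the replicative helicase, -0.29 ± 0.14, and the other probe sets of Orc1 and Chaf1b had the opposite sign.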

How the data were processed

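The authors deposited linear intensities from 3.6 to 24044 units. RMA, which corrects background, equalises array distributions and summarises probes, is named per the submitters' processing notes with no version. Because distributions are equalised, a value says how a gene stands among the others on its array, not how much RNA a cell held. Log2 was taken with no offset and 64 control probe sets were dropped. The 6 arrays were compared with limma 3.58.1 in R 4.3.3 (lmFit and eBayes, no replicate block), adjusting by Benjamini-Hochberg over all 45037 probe sets. Pathway genes used the brightest probe set of each of 18193 genes. Only 3 arrays per group limit the precision.

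Members and gene lists were chosen with earlier results of these data known. Every member probe set is given, and up to 3 genes of each pathway list with the smallest p. Alike genes are the 3 highest correlations with each of the 2 members of widest range.

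Settings tried in turn changed the variance prior (trend or robust), weighted the arrays, normalized again by quantiles or medians, added a pseudocount of 16, filtered by level, summarised probe sets otherwise, blocked by replicate, dropped each array, dropped sex-linked probe sets or set the threshold to 0.1 or 0.01. Counts of higher and lower means per list were also taken without WT replicate 1 or 2, chosen after seeing the data. The model was run on simulated data first.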

Additional observations from a re-analysis of the deposited data

How the results depend on the processing

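The count of member probe sets past the threshold stayed 0 under all 20 alternatives, and the smallest adjusted p of any member in them was 0.328. Of 386 member values under alternatives 356 kept their direction, 0 passed and 30 turned, 18 of these with 1 array left out. With arrays centred on their medians Dnmt1 1435122_x_at was 0.0079, and when probe sets were averaged per gene Uhrf1 was -0.040 and Tet2 -0.035. With both WT replicates 1 and 2 left out, an alternative chosen after seeing the data, the values were 0.045 and 0.035 for Dnmt1 1422946_a_at and 1435122_x_at, -0.011 for Uhrf1 1415810_at, 0.12 for Dnmt3a 1423064_at, 0.17 for Dnmt3b 1418351_a_at, -0.14 and -0.37 for Tet1 1419897_at and 1455425_at, 0.027 for Tet2 1438781_at and -0.017 for Idh1 1419821_s_at. The lone WT array was then assumed to vary like the N1-IC arrays.

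Leaving out 1 array gave -0.21 to 0.022 for Dnmt1 1422946_a_at, -0.027 to 0.035 for Dnmt1 1435122_x_at, -0.11 to 0.062 for Dnmt3a 1423063_at, -0.12 to 0.061 for Dnmt3a 1423064_at, -0.24 to 0.036 for Dnmt3a 1423065_at, -0.26 to 0.13 for Dnmt3b 1418351_a_at, -0.22 to 0.30 for Tet1 1429448_s_at, -0.0089 to 0.53 for Tet1 1455425_at, -0.44 to 0.0495 for Tet2 1438781_at, -0.028 to 0.25 for Tet2 1455300_at and -0.11 to 0.20 for Tet3 1439324_at. Their causes were not tested. Among all probe sets the limma count was 4. It was 7 with a mean-variance trend, 1 with the brightest probe set per gene, 2 with a replicate block, 10 at a threshold of 0.1 and 2 with both WT replicates 1 and 2 left out. Leaving out 1 array gave 3 to 8, the highest without WT replicate 2. Member groups that did not overlap numbered 1, or 0 by the brightest probe set per gene, 2 to 6 with 1 array left out, where 22.7% to 32.3% of all probe sets did not overlap, and 9 with both WT replicates left out (47.4% of all). These counts rise with fewer arrays by construction. No pathway gene passed in limma with 1 array left out or with the mean of probe sets.

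The labels do not say whether equal replicate numbers mark a shared animal, day or batch. Deviations from group means correlated at 0.013, 0.04 and -0.077 for replicates 1, 2 and 3 over all probe sets, which cannot settle this. With the replicate block the standard error of Tet1 1455425_at fell from 0.32 to 0.16. The block changed no member's call.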
